A study of Mus musculus with 24 samples.

Results

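The genes of glycolysis and the targets of hypoxia-inducible factor (HIF) described here are 38 genes out of 45706 genes in the count table. They were chosen by name, with earlier results of these data known. The 38 genes comprise 16 glycolytic enzymes, 5 transporters and regulators of glycolysis, 4 HIF subunits and oxygen sensors, and 13 other HIF targets. All 38 matched 1 Ensembl gene identifier each. Bulk RNA sequencing was performed on 24 libraries in 8 groups of 3, from 4 populations of tissue-resident macrophages (TRMs) of female C57BL/6J mice: microglia (MG) of the brain, Kupffer cells (KCs) of the liver, peritoneal macrophages (PMs) and alveolar macrophages (AMs) of the lung. Each population was taken either directly by FACS (ex vivo) or as TRM-like cells after 14 days in culture (MG-LCs, KC-LCs, PM-LCs and AM-LCs, in vitro). The labels give an age of 8 to 12 weeks for all mice, and the study's methods give 8 weeks. Culture flasks were coated with polyethylenimine and seeded with unpurified cells of the organ: 3 brains, 3 lungs, the peritoneal cells of 3 mice or 1 liver per flask, so a brain, lung or peritoneal culture pooled animals. MG-LCs received M-CSF and IL-34, and KC-LCs and PM-LCs received M-CSF; these 3 cultures were kept in high-glucose medium at 3% oxygen. AM-LCs received GM-CSF in medium without added D-glucose and were kept at atmospheric oxygen. No source used here states that the cultured cells were sorted before lysis.

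HIF is a transcription factor made of an oxygen-labile alpha subunit and a stable beta subunit. Where oxygen is plentiful, prolyl hydroxylases of the EGLN family mark the alpha subunit for degradation; where it is scarce, the subunit persists and HIF switches on genes for glucose uptake, glycolysis, lactate export, blood vessel growth and the removal of mitochondria. In macrophages, glycolysis and HIF are also engaged by inflammatory stimuli at normal oxygen, and growth factors and nutrients act on the same genes.

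Levels are given as CPM, the count scaled to library size with edgeR's TMM factors over all 24 libraries. Folds are log2 fold changes from edgeR's quasi-likelihood test ± an approximate standard error (SE). That error is the absolute log2 fold change divided by the square root of the test's F statistic. P-values were adjusted over every tested gene (Benjamini-Hochberg), and a gene was called at an adjusted p under 0.05. The labels do not say that the 3 libraries of a group came from separate animals or flasks, so p-values measure only the spread between these libraries, which may be technical. The libraries held 29569486 to 47105111 counts, and 3 counts corresponded to at most 0.114 CPM. Summed over 8 general macrophage markers, the groups lay between 13142 and 123401 CPM. The defining markers of each tissue's macrophage (4 genes for each tissue) were far lower after culture: 18739 to 19623 CPM in MG and 295 to 2399 in MG-LCs, 13901 to 24847 in KCs and 16.9 to 94.0 in KC-LCs, 21729 to 23891 in PMs and 53.1 to 147 in PM-LCs, and 20737 to 23761 in AMs and 2453 to 9442 in AM-LCs. Among the cultures, the markers of PMs and AMs were highest in PM-LCs and AM-LCs. The Kupffer cell markers were higher in MG-LCs (215 to 2234 CPM) and PM-LCs (142 to 825) than in KC-LCs. For the microglia markers, MG-LC replicate 1, at 295 CPM, lay below all KC-LCs, at 311 to 435. Summed over 8 fibroblast and mesothelium markers, MG-LC replicate 1 reached 30938 CPM, PM-LC replicate 2 reached 2144 and AM-LC replicate 3 reached 1654, with all 8 genes detected in each. The other MG-LCs were at 7.51 and 1015 CPM, and the KC-LCs at most at 28.0, with 2, 5 and 7 of the 8 genes at 0. Among sorted cells, AMs stood at 919 to 1058 CPM for these markers and all others at 21.0 or less. The sum in AMs came from part of the list, with 4, 5 and 5 of the 8 genes at 0. In bulk libraries, fewer cells of a type and less RNA per cell cannot be told apart, and a gene's level is an average over all cells lysed. The part of fibroblast RNA in the members' levels was not tested, and counts without these 3 libraries are given beside the results.

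HIF binds DNA at a short core that reads ACGTG or, with another first letter, GCGTG, so the start regions of the genes are shown for 5 members on which the comparisons turn: Ankrd37, Pdk1 and Egln3, which were higher in the cultures at 3% oxygen than in AM-LCs, and Ldha and Pgk1, glycolytic enzymes that were higher in all 4 cultures than in the sorted cells but did not pass against AM-LCs. Each is the 250 bases before a RefSeq transcription start (GRCm38.p6), on the gene's strand, and capitals mark both forms on either strand. On the opposite strand the first form reads CACGT and the other form reads CACGC, and matches can overlap.
Ankrd37, chr8:45999851-46000100, minus strand: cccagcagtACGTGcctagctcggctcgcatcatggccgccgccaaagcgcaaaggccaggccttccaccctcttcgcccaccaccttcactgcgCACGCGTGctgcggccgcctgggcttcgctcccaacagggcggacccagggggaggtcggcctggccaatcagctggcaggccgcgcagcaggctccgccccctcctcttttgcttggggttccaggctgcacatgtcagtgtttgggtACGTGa
Pdk1, chr2:71872974-71873223, plus strand: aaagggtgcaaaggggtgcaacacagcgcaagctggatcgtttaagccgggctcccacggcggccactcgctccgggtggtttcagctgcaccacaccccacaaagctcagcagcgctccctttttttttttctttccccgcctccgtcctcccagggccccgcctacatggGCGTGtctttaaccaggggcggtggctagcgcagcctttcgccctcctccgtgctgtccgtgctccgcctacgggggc
Egln3, chr12:54203875-54204124, minus strand: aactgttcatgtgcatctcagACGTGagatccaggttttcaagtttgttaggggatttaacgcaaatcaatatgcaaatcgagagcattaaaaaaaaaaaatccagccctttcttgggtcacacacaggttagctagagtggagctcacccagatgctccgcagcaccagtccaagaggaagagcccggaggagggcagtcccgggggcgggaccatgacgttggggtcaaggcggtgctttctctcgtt
Ldha, chr7:46845554-46845803, plus strand: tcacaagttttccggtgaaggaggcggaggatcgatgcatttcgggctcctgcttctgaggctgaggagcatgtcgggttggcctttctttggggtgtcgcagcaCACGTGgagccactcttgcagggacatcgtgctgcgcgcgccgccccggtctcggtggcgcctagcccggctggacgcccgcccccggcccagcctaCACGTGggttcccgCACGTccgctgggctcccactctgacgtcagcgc
Pgk1, chrX:106186850-106187099, plus strand: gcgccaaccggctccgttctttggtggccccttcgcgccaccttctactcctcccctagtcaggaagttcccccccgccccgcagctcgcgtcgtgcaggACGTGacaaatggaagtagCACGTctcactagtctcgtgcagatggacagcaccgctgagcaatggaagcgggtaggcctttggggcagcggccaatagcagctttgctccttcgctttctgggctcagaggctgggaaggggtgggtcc
Ankrd37 held 4 cores in these bases, Ldha 5, Pgk1 2, and Pdk1 and Egln3 1 each. Ldha and Pdk1 each had a further RefSeq start that is not shown, with 1 core in its 250 bases for Ldha and 0 for Pdk1. The RefSeq start of Ankrd37 lies inside the gene as GENCODE draws it, where the first 17 bases before the start belong to an exon. The Ldha start shown also lies inside its GENCODE gene, which begins at base 46841475. Over the wider window of 250 bases before to 50 after a start, 45 of 54 promoters of 35 members held a core (83.3%), against 14380 of 32851 promoters of all genes (43.8%). The members' promoters were richer in G and C, with a median of 63.8% against 52.7% for all promoters. A core was present in 21 of 27 promoters of glycolytic enzymes (77.8%) and in 15 of 17 of the other HIF targets (88.2%). Tpi1 and Gpi1 held none in this window. Epas1, Ndrg1 and Bnip3l had no entry in the promoter table. A match to these letters describes the sequence and is not evidence of binding.

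The first question is how the members differed between TRM-LCs and the sorted cells of the same tissue. Most members were higher in culture, in every population. In MG-LCs, 29 of 38 members were called higher and 2 lower, against 25.2% of all 14416 tested genes higher and 21.2% lower. In KC-LCs, 24 of 38 were called higher and 2 lower (14.4% and 19.4% of all genes). In PM-LCs, 21 of 37 were called higher and 1 lower (16.8% and 12.1%); Ddit4 was too low to be tested there. In AM-LCs, 23 of 38 were called higher and 4 lower (25.9% and 22.9%). The median of the tested members, on the log2 scale, was 2.86 in MG, 1.00 in AMs, 1.09 in PMs and 1.45 in KCs, while the median over all tested genes was 0.03, 0.04, 0.01 and -0.01.

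A stricter count that also asked for a log2 fold change above 1.5 left 26 members higher in MG (16.4% of all genes), 14 in AMs (12.9%), 16 in PMs (10.2%) and 18 in KCs (7.62%). All 3 cultured libraries lay above all 3 sorted libraries for 30 members in MG, 24 in AMs, 23 in PMs and 27 in KCs. The share of all tested genes that did so was 30.0%, 30.9%, 24.4% and 27.0%. All 3 cultured libraries lay below all 3 sorted ones for 3 members in MG, 5 in AMs, 5 in PMs and 3 in KCs. Of all tested genes, 35.4%, 30.7%, 24.4% and 27.1% did so. The members called higher in all 4 populations were 10: Tpi1, Pgk1, Pgam1, Pkm, Ldha, Slc2a1, Vegfa, Ankrd37, Ndrg1 and Ak4. Another 10 were called higher in 3 populations, 10 in 2 and 7 in 1. Pfkfb3 was higher in none. Without the library richest in fibroblast RNA of each culture, 31 members were called higher in MG, 22 in PMs and 22 in AMs. With total-count scaling in place of TMM, 17 members were called higher and 6 lower in AMs.

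**Figure D1:**
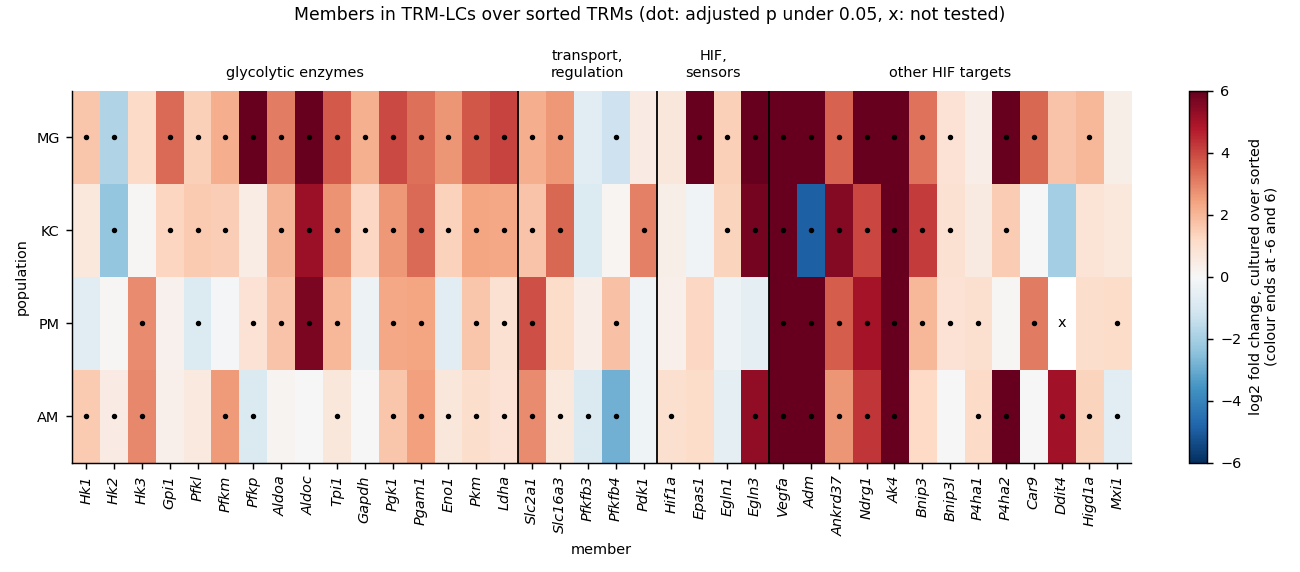
Log2 fold change of each of the 38 members (columns, grouped by role) in cultured over sorted cells of the 4 populations (rows), with 3 libraries in each group. Colour gives the fold change and ends at -6 and 6, dots mark an adjusted p under 0.05, and x marks the 1 member not tested in PMs. Red fills most of the MG row, and the blue cells include Hk2 in MG and KCs, Adm in KCs and Pfkfb4 in MG and AMs.

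Glycolytic enzymes and other HIF targets were set side by side in each population. In MG, 14 of 16 enzymes and 10 of 13 other targets were called higher, with median log2 fold changes of 3.17 and 3.43. In KCs the enzymes had the larger share, as in MG, and there also the larger median. In KCs 12 of 16 enzymes were called higher with a median of 1.53, and 7 of 13 other targets with a median of 0.93. In PMs and AMs, as in MG, the other targets had the larger median. PMs had 9 of 16 enzymes called higher with a median of 0.89 and 10 of 12 other targets with a median of 2.55. AMs had 10 of 16 enzymes called higher with a median of 0.69 and 9 of 13 other targets with a median of 2.65. The difference between both roles was not tested, because members are not replicates. The 5 transporters and regulators had medians of 0.48 (MG), 1.73 (KCs), 1.09 (PMs) and -0.24 (AMs), and the 4 HIF subunits and sensors had 3.91, 0.86, -0.00 and 1.03.

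Of the HIF subunits and sensors, Hif1a passed the test in AMs alone, whereas Egln3, a prolyl hydroxylase that is also a HIF target, rose from near 0 in 3 of the populations. Hif1a, the alpha subunit found in most cells, stood at 162, 143 and 158 in MG, 22.5, 80.6 and 109 in KCs, 78.6, 119 and 76.9 in PMs and 101, 103 and 98.2 in AMs. After culture it was at 425, 116 and 166 in MG-LCs, 111, 62.1 and 106 in KC-LCs, 106, 114 and 116 in PM-LCs and 164, 162 and 253 in AM-LCs. MG-LC replicate 1, the library richest in fibroblast RNA, stood far above the other MG-LCs, and sorted KC replicate 1 far below the other KCs, and the sorted and cultured libraries overlapped in MG, KCs and PMs. In AMs the log2 fold change was 0.96 ± 0.22 (adjusted p = 0.00903), a call lost with all 24 libraries in 1 model (0.119) and with total-count scaling (0.0623).

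Egln3 was at 1.04, 0.352 and 0.527 in MG, 0.979, 0.0780 and 0.314 in KCs, 35.04, 33.1 and 33.5 in PMs and 0.269, 0 and 0.149 in AMs. In culture it was at 155, 26.5 and 105 in MG-LCs, 36.7, 22.2 and 17.2 in KC-LCs, 13.2, 29.7 and 26.2 in PM-LCs and 2.45, 2.48 and 11.5 in AM-LCs. Sorted PMs already carried Egln3 above every other sorted library, and they alone did not have it called higher in culture. All PM-LCs lay below the sorted PMs for Egln3, without passing the test. The log2 fold changes were 7.26 ± 0.88 (adjusted p = 0.00232) in MG, 5.74 ± 0.88 (adjusted p = 0.00330) in KCs and 5.34 ± 1.201 (adjusted p = 0.00914) in AMs. Egln1, the hydroxylase that sets the normal oxygen response, averaged 49.0 ± 5.48 in sorted MG and 37.6 ± 4.996 in KCs, and 96.0 ± 6.08 in PMs and 80.8 ± 8.07 in AMs (mean ± SD, n = 3 here and for the other group means). In culture it averaged 126 ± 33.0 in MG-LCs, 98.0 ± 32.0 in KC-LCs, 77.9 ± 9.86 in PM-LCs and 54.0 ± 14.2 in AM-LCs. It rose by 1.42 ± 0.24 (adjusted p = 0.00575) in MG and 1.35 ± 0.29 (adjusted p = 0.0110) in KCs, and did not pass in PMs or AMs. In PMs and AMs, all cultured libraries lay below all sorted ones for Egln1. Epas1, the second alpha subunit, averaged 0.126 ± 0.164 in sorted MG and 4.93 ± 5.11 in KCs, and 25.3 ± 5.72 in PMs and 10.7 ± 2.22 in AMs. In culture Epas1 averaged 10.7 ± 3.25 in MG-LCs, 4.36 ± 0.606 in KC-LCs, 59.2 ± 51.9 in PM-LCs and 22.5 ± 13.2 in AM-LCs. It was called only in MG, where it rose from 0 to 0.311 CPM to 8.66 to 14.4 CPM, by 6.40 ± 1.14 (adjusted p = 0.00701), a call lost without sorted MG replicate 1 (0.0537).

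At the top of glycolysis, the hexokinases, which phosphorylate glucose, moved in different directions. Hk2, the isoform usually named as the inducible one, averaged 156 ± 18.3 in sorted MG and 97.3 ± 12.2 in KCs, and 28.2 ± 3.94 in PMs and 25.8 ± 0.548 in AMs. In culture Hk2 averaged 43.2 ± 15.9 in MG-LCs, 19.9 ± 7.95 in KC-LCs, 29.4 ± 22.4 in PM-LCs and 36.4 ± 6.12 in AM-LCs. It fell in MG and KCs, with log2 fold changes of -1.81 ± 0.31 (adjusted p = 0.00637) in MG and -2.33 ± 0.34 (adjusted p = 0.00288) in KCs, and all 3 cultured libraries lay below all 3 sorted ones in both. In AMs it was 0.51 ± 0.18 (adjusted p = 0.0486), a call lost without sorted AM replicates 1, 2 and 3 (0.106, 0.128 and 0.139), without AM-LC replicates 1 and 3 (0.0767 and 0.105), without a filter on low counts (0.0816), with all 24 libraries in 1 model (0.353) and with total-count scaling (0.566). Hk1 averaged 49.98 ± 3.19 in sorted MG and 86.2 ± 30.9 in KCs, and 184 ± 31.2 in PMs and 28.5 ± 2.52 in AMs. In culture Hk1 averaged 153 ± 53.3 in MG-LCs, 136 ± 22.4 in KC-LCs, 117 ± 27.3 in PM-LCs and 82.9 ± 31.4 in AM-LCs. Hk1 rose by 1.67 ± 0.28 (adjusted p = 0.00579) in MG and 1.57 ± 0.30 (adjusted p = 0.00461) in AMs. Hk3, the form common in myeloid cells, averaged 182 ± 5.64 in sorted MG and 445 ± 51.2 in KCs, and 107 ± 4.32 in PMs and 66.4 ± 9.71 in AMs. In culture Hk3 averaged 394 ± 221 in MG-LCs, 479 ± 75.7 in KC-LCs, 755 ± 178 in PM-LCs and 482 ± 33.0 in AM-LCs, and it rose by 2.82 ± 0.22 (adjusted p = 0.000202) in PMs and 2.87 ± 0.15 (adjusted p = 4.70e-05) in AMs.

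Gpi1, which turns glucose phosphate into fructose phosphate, averaged 50.5 ± 3.25 in sorted MG and 156 ± 61.0 in KCs, and 248 ± 14.9 in PMs and 181 ± 8.14 in AMs. In culture Gpi1 averaged 515 ± 100.2 in MG-LCs, 395 ± 177 in KC-LCs, 297 ± 72.4 in PM-LCs and 223 ± 40.6 in AM-LCs. It rose by 3.40 ± 0.24 (adjusted p = 0.000769) in MG and 1.31 ± 0.41 (adjusted p = 0.0404) in KCs, and the KC call was lost without sorted KC replicates 2 and 3 (0.118 and 0.116), without KC-LC replicates 1 and 2 (0.114 and 0.0725) and with total-count scaling (0.0947). Of the 50-base windows of the principal transcript of Gpi1, 25.3% also occur in other genes, and an antisense gene overlaps 11.5% of its exon bases. Phosphofructokinase, the committed step, has 3 genes. Pfkm, the muscle form, was at 8.24, 5.95 and 6.08 in MG, 7.02, 3.04 and 6.97 in KCs, 9.72, 11.9 and 11.8 in PMs and 1.05, 0.410 and 1.64 in AMs. In culture Pfkm was at 35.9, 21.2 and 30.2 in MG-LCs, 17.4, 14.2 and 17.8 in KC-LCs, 11.9, 4.85 and 14.7 in PM-LCs and 5.48, 2.86 and 9.68 in AM-LCs. Its 3 libraries of sorted AMs were the lowest of all. It rose by 2.16 ± 0.29 (adjusted p = 0.00303) in MG, 1.4997 ± 0.43 (adjusted p = 0.0317) in KCs and 2.58 ± 0.68 (adjusted p = 0.0169) in AMs, with calls lost in KCs without sorted KC replicates 2 and 3 (0.0536 and 0.0504), without KC-LC replicates 1, 2 and 3 (0.0855, 0.0718 and 0.0923) and with total-count scaling (0.0612) and in AMs without sorted AM replicates 1 and 2 (0.0641 and 0.0522).

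Pfkl, the liver form, was at 135, 139 and 122 in MG, 63.8, 63.6 and 79.2 in KCs, 314, 349 and 251 in PMs and 72.3, 70.1 and 63.7 in AMs. In culture Pfkl was at 459, 243 and 318 in MG-LCs, 295, 164 and 169 in KC-LCs, 126, 212 and 180.5 in PM-LCs and 71.7, 98.3 and 134 in AM-LCs. Sorted PMs had the highest sorted levels, and PMs were the only population in which Pfkl was called lower. It changed by 1.42 ± 0.28 (adjusted p = 0.00993) in MG, 1.57 ± 0.29 (adjusted p = 0.00666) in KCs and -0.81 ± 0.24 (adjusted p = 0.0424) in PMs, with calls lost in MG without sorted MG replicates 1, 2 and 3 (0.0585, 0.0558 and 0.0615) and in PMs without sorted PM replicates 1, 2 and 3 (0.129, 0.131 and 0.0725) and without PM-LC replicate 1 (0.0942). Pfkp, the platelet form, averaged 1.87 ± 1.19 in sorted MG and 127 ± 75.3 in KCs, and 96.6 ± 9.08 in PMs and 403 ± 20.4 in AMs. In culture Pfkp averaged 161 ± 68.2 in MG-LCs, 178 ± 58.7 in KC-LCs, 178 ± 30.3 in PM-LCs and 224 ± 43.3 in AM-LCs. The 4 cultures were closer to each other than the sorted groups, which spanned 0.731 to 422 CPM. Pfkp rose by 6.48 ± 0.69 (adjusted p = 0.00169) in MG and 0.88 ± 0.19 (adjusted p = 0.0129) in PMs and fell in AMs, with -0.84 ± 0.14 (adjusted p = 0.00285). Calls were lost in PMs without sorted PM replicates 1 and 3 (0.0594 and 0.0666) and with all 24 libraries in 1 model (0.127) and in AMs with all 24 libraries in 1 model (0.131).

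The aldolases split the phosphorylated sugar. Aldoa, the main form, was at 284, 299 and 282 in MG, 598, 498 and 561 in KCs, 704, 727 and 723 in PMs and 1683, 1435 and 1569 in AMs. In culture Aldoa was at 2099, 2266 and 2568 in MG-LCs, 3110.1, 2079 and 1877 in KC-LCs, 2382, 2466 and 2282 in PM-LCs and 1628, 1886 and 1675 in AM-LCs. Sorted AMs, at 1435 to 1683 CPM, lay above all other sorted libraries and below the 9 libraries of MG-LCs, KC-LCs and PM-LCs, at 1877 to 3110.1 CPM. It rose by 3.05 ± 0.29 (adjusted p = 0.00129) in MG, 2.06 ± 0.31 (adjusted p = 0.00310) in KCs and 1.73 ± 0.15 (adjusted p = 0.000267) in PMs and was not called in AMs. Aldoc, the brain-type aldolase, was at 0.133, 0.244 and 0.431 in MG, 8.27, 4.60 and 2.72 in KCs, 0.534, 0.927 and 1.79 in PMs and 113, 102 and 126 in AMs. In culture Aldoc was at 37.9, 156 and 39.4 in MG-LCs, 236, 154 and 175 in KC-LCs, 54.3, 59.4 and 51.0 in PM-LCs and 79.8, 161 and 91.0 in AM-LCs. Again AMs alone had it before culture, at 102 to 126 CPM against at most 8.27 in any other sorted library. Aldoc rose by 8.21 ± 0.91 (adjusted p = 0.00187) in MG, 5.14 ± 0.47 (adjusted p = 0.000533) in KCs and 5.65 ± 0.46 (adjusted p = 0.000223) in PMs, and sorted and cultured AMs overlapped.

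Tpi1, which interconverts the triose products of aldolase, was at 87.8, 93.4 and 87.6 in MG, 195, 117 and 169 in KCs, 191, 189 and 193 in PMs and 206, 192 and 215 in AMs. In culture Tpi1 was at 1281, 995 and 1008 in MG-LCs, 1564, 1007 and 672 in KC-LCs, 817, 957 and 522 in PM-LCs and 275, 301 and 386 in AM-LCs. Every cultured library lay above every sorted library of its own tissue, and AM-LCs had the 3 lowest cultured levels. The log2 fold change was 3.66 ± 0.26 (adjusted p = 0.000769) in MG, 2.72 ± 0.39 (adjusted p = 0.00269) in KCs, 2.00 ± 0.24 (adjusted p = 0.00111) in PMs and 0.67 ± 0.17 (adjusted p = 0.0150) in AMs, and the AM call was lost without sorted AM replicates 1, 2 and 3 (0.0514, 0.0664 and 0.0508), with all 24 libraries in 1 model (0.0714) and with total-count scaling (0.196). Gapdh, the step that makes NADH, averaged 42.9 ± 4.57 in sorted MG and 61.5 ± 19.5 in KCs, and 139.9 ± 12.4 in PMs and 118 ± 7.32 in AMs. In culture Gapdh averaged 180.4 ± 56.1 in MG-LCs, 151 ± 50.6 in KC-LCs, 113 ± 40.9 in PM-LCs and 119.8 ± 17.1 in AM-LCs. Gapdh rose by 2.13 ± 0.27 (adjusted p = 0.00264) in MG and 1.26 ± 0.34 (adjusted p = 0.0255) in KCs, the latter lost without sorted KC replicates 2 and 3 (0.0756 and 0.0739), without KC-LC replicates 1 and 2 (0.0793 and 0.0656) and with total-count scaling (0.0678). Its level is uncertain, because 82.5% of the 50-base windows of its principal transcript also occur in other genes, 213 of them pseudogenes.

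Pgk1, the first step that yields ATP, was at 2.76, 3.17 and 3.83 in MG, 10.9, 4.71 and 6.46 in KCs, 4.94, 4.47 and 4.50 in PMs and 6.70, 7.14 and 7.53 in AMs. In culture Pgk1 was at 59.9, 41.7 and 43.7 in MG-LCs, 77.6, 32.0 and 30.1 in KC-LCs, 22.8, 32.5 and 14.2 in PM-LCs and 20.5, 18.5 and 26.8 in AM-LCs. No cultured library overlapped the sorted ones of its tissue. Pgk1 rose by 3.95 ± 0.26 (adjusted p = 0.000672) in MG, 2.62 ± 0.50 (adjusted p = 0.00704) in KCs, 2.32 ± 0.34 (adjusted p = 0.00268) in PMs and 1.64 ± 0.23 (adjusted p = 0.00126) in AMs. Pgam1, a phosphoglycerate mutase, was at 4.29, 4.79 and 3.78 in MG, 4.89, 3.82 and 3.92 in KCs, 7.62, 5.86 and 5.62 in PMs and 8.73, 7.22 and 8.83 in AMs. In culture Pgam1 was at 41.3, 40.03 and 40.1 in MG-LCs, 63.4, 38.6 and 33.2 in KC-LCs, 35.5, 38.4 and 25.3 in PM-LCs and 41.7, 47.0 and 44.9 in AM-LCs. The highest of the 12 sorted libraries was at 8.83 CPM, and the 12 cultured ones spanned 25.3 to 63.4 CPM. Pgam1 rose by 3.29 ± 0.19 (adjusted p = 0.000594) in MG, 3.38 ± 0.35 (adjusted p = 0.000763) in KCs, 2.38 ± 0.26 (adjusted p = 0.000752) in PMs and 2.44 ± 0.16 (adjusted p = 8.94e-05) in AMs. Other genes share 68.0% of the 50-base windows of Pgk1 and 41.5% of those of Pgam1, so their levels are uncertain too.

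Eno1, which makes phosphoenolpyruvate, was at 95.9, 97.7 and 95.7 in MG, 192, 170.3 and 187 in KCs, 502, 544 and 498 in PMs and 217, 199 and 216 in AMs. In culture Eno1 was at 898, 437 and 437 in MG-LCs, 756, 368 and 369 in KC-LCs, 257, 416 and 285 in PM-LCs and 308, 310.1 and 396 in AM-LCs. Sorted PMs stood highest among the sorted cells and were the one population without a called rise. All PM-LCs lay below the sorted PMs for Eno1, without passing the test. Eno1 rose by 2.67 ± 0.37 (adjusted p = 0.00329) in MG, 1.41 ± 0.33 (adjusted p = 0.0154) in KCs and 0.70 ± 0.16 (adjusted p = 0.00857) in AMs. The call was lost in KCs without sorted KC replicate 2 (0.0570) and in AMs with all 24 libraries in 1 model (0.0750) and with total-count scaling (0.135), and 72.2% of the windows of Eno1 also occur elsewhere.

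Pkm, pyruvate kinase, was at 189, 184 and 186 in MG, 452, 375 and 431 in KCs, 549, 641 and 525 in PMs and 612, 564 and 608 in AMs. In culture Pkm was at 2894, 2212 and 2141 in MG-LCs, 3106, 1669.8 and 1815 in KC-LCs, 1564, 1876 and 1950.3 in PM-LCs and 1141, 1071 and 1418 in AM-LCs. The lowest cultured library, at 1071 CPM in AM-LCs, was above the highest sorted one, at 641 CPM in PMs. Pkm rose by 3.75 ± 0.32 (adjusted p = 0.00102) in MG, 2.35 ± 0.34 (adjusted p = 0.00259) in KCs, 1.65 ± 0.18 (adjusted p = 0.000730) in PMs and 1.04 ± 0.16 (adjusted p = 0.00200) in AMs. Ldha, the lactate dehydrogenase subunit that favours lactate production, was at 148, 149 and 141 in MG, 500.4, 344 and 317 in KCs, 941, 1104 and 923 in PMs and 808, 702 and 693 in AMs. In culture Ldha was at 4097, 1582 and 1353 in MG-LCs, 3004, 1536 and 1349 in KC-LCs, 1729, 2424 and 1362 in PM-LCs and 1059.9, 1319 and 1630.5 in AM-LCs. MG had the lowest sorted levels and, in replicate 1, the highest cultured level. Ldha rose by 4.07 ± 0.56 (adjusted p = 0.00340) in MG, 2.31 ± 0.40 (adjusted p = 0.00526) in KCs, 0.89 ± 0.24 (adjusted p = 0.0275) in PMs and 0.89 ± 0.20 (adjusted p = 0.00918) in AMs, with calls lost in PMs without sorted PM replicates 1, 2 and 3 (0.126, 0.0720 and 0.133), without PM-LC replicate 1 (0.0535), with all 24 libraries in 1 model (0.0784) and with total-count scaling (0.0520) and in AMs with all 24 libraries in 1 model (0.0819) and with total-count scaling (0.0616). The shared windows of Pkm and Ldha came to 34.4% and 17.1%.

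**Figure D2:**
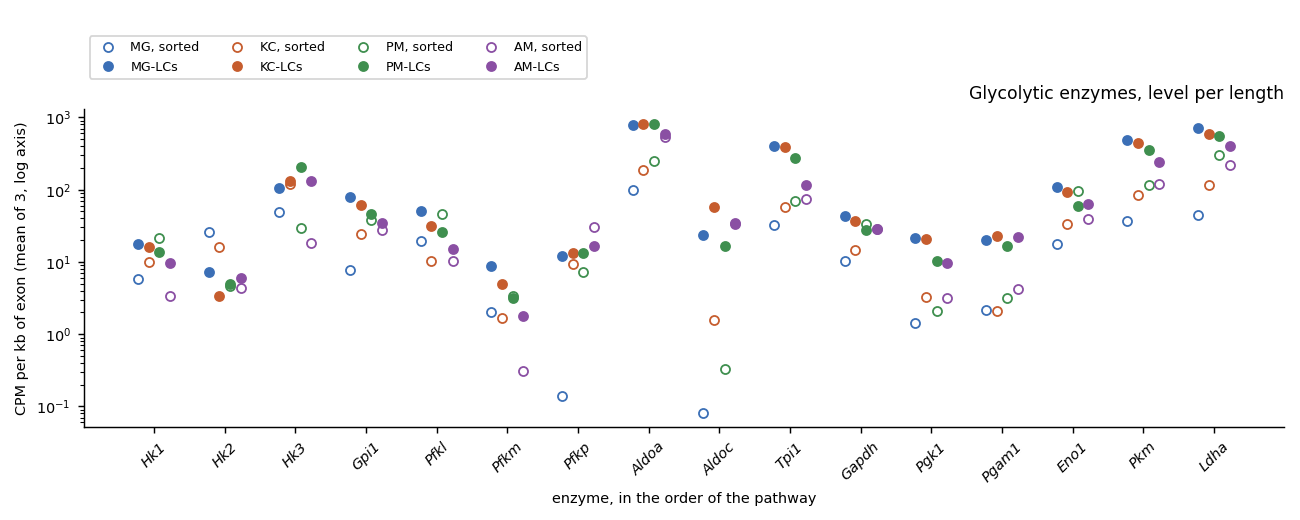
Mean level of the 16 glycolytic enzymes in CPM per kb of exon (log axis), in the order of the pathway, for sorted (open) and cultured (filled) cells of the 4 populations, 3 libraries each. Aldoa, Ldha and Pkm lie highest in all 4 cultures, and the cultured points of Tpi1, Pgk1 and Pgam1 lie above all sorted points. Levels were not corrected for sequence shared with other genes, so the order of the enzymes is uncertain.

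Per kb of exon, Aldoa had the highest measured level of the enzymes in all groups but sorted PMs. There Ldha stood at 299 CPM per kb and Aldoa at 247. Aldoa averaged 99.1 CPM per kb in sorted MG and 794 in MG-LCs. The 4 cultures had Aldoa, Ldha and Pkm in that order, followed by Tpi1 in MG-LCs, KC-LCs and PM-LCs and by Hk3 in AM-LCs. In sorted MG and KCs the second place was held by Hk3, at 49.5 and 121 CPM per kb. These ranks were not corrected for sequence shared with other genes. Such genes share 82.5% of the 50-base windows of Gapdh, 72.2% of Eno1 and 68.0% of Pgk1, against 13.9% of Aldoa. The length used is that of all annotated exons merged, so the rank of an enzyme by transcript number is uncertain.

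Transport and control of the pathway changed in part. Slc2a1, the basal glucose transporter, was at 67.4, 69.7 and 51.0 in MG, 26.98, 39.1 and 59.2 in KCs, 18.3, 13.5 and 7.81 in PMs and 36.7, 41.3 and 33.3 in AMs. In culture Slc2a1 was at 438, 164 and 210.1 in MG-LCs, 195, 104 and 126 in KC-LCs, 155, 193 and 227 in PM-LCs and 230.3, 221 and 334 in AM-LCs. All 12 cultured libraries lay above all 12 sorted ones, and AM-LCs were within the range of MG-LCs. Slc2a1 rose by 2.17 ± 0.42 (adjusted p = 0.00894) in MG, 1.73 ± 0.37 (adjusted p = 0.0104) in KCs, 3.86 ± 0.36 (adjusted p = 0.000374) in PMs and 2.84 ± 0.23 (adjusted p = 0.000156) in AMs, and the MG call was lost without sorted MG replicates 1 and 3 (0.0519 and 0.0560). Slc16a3, the lactate exporter, was at 54.2, 61.6 and 57.2 in MG, 23.8, 20.2 and 12.0 in KCs, 53.5, 42.4 and 41.5 in PMs and 63.9, 51.6 and 55.8 in AMs. In culture Slc16a3 was at 539, 204 and 276 in MG-LCs, 326, 166 and 136 in KC-LCs, 57.1, 165 and 71.1 in PM-LCs and 79.4, 89.1 and 92.1 in AM-LCs. PM-LCs lay above the sorted PMs without passing the test. Slc16a3 rose by 2.61 ± 0.40 (adjusted p = 0.00471) in MG, 3.45 ± 0.43 (adjusted p = 0.00164) in KCs and 0.62 ± 0.14 (adjusted p = 0.00879) in AMs, and the AM call was lost with all 24 libraries in 1 model (0.249) and with total-count scaling (0.180).

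Pfkfb3 and Pfkfb4 make the sugar bisphosphate that activates phosphofructokinase, and the only rise called was that of Pfkfb4 in PMs. Pfkfb3 was at 114, 114 and 147 in MG, 48.2, 22.5 and 12.5 in KCs, 27.4, 45.2 and 24.1 in PMs and 18.8, 27.03 and 24.9 in AMs. In culture Pfkfb3 was at 99.97, 29.2 and 98.7 in MG-LCs, 10.4, 14.6 and 23.8 in KC-LCs, 34.7, 29.3 and 61.3 in PM-LCs and 10.8, 15.7 and 12.5 in AM-LCs. Sorted MG held the highest levels. It was called only in AMs, where it fell, with -0.85 ± 0.22 (adjusted p = 0.0175), a call lost without sorted AM replicates 2 and 3 (0.0704 and 0.0625) and with all 24 libraries in 1 model (0.175). Pfkfb4 averaged 99.2 ± 2.15 in sorted MG and 42.7 ± 9.46 in KCs, and 19.3 ± 1.61 in PMs and 281 ± 13.3 in AMs. In culture Pfkfb4 averaged 40.6 ± 21.3 in MG-LCs, 47.7 ± 16.4 in KC-LCs, 64.2 ± 17.8 in PM-LCs and 37.4 ± 11.6 in AM-LCs. It fell in MG and AMs and rose in PMs, with log2 fold changes of -1.24 ± 0.39 (adjusted p = 0.0399) in MG, -2.90 ± 0.22 (adjusted p = 0.000139) in AMs and 1.74 ± 0.25 (adjusted p = 0.00253) in PMs, and the MG call was lost without sorted MG replicates 1, 2 and 3 (0.108, 0.108 and 0.111), without MG-LC replicate 2 (0.0943) and without a filter on low counts (0.0509).

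Pdk1, a kinase that holds pyruvate dehydrogenase inactive and so keeps pyruvate out of the citrate cycle, was at 129, 138 and 146 in MG, 11.8, 21.8 and 30.8 in KCs, 75.1, 96.6 and 69.4 in PMs and 45.3, 43.4 and 46.7 in AMs. In culture Pdk1 was at 161, 214 and 182 in MG-LCs, 271, 125 and 144 in KC-LCs, 77.2, 59.2 and 69.7 in PM-LCs and 34.6, 34.7 and 43.8 in AM-LCs. Sorted MG lay within the range of KC-LCs, and PM-LCs and AM-LCs overlapped their sorted counterparts. Pdk1 was called only in KCs, where it rose by 3.03 ± 0.45 (adjusted p = 0.00299).

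**Figure D3:**
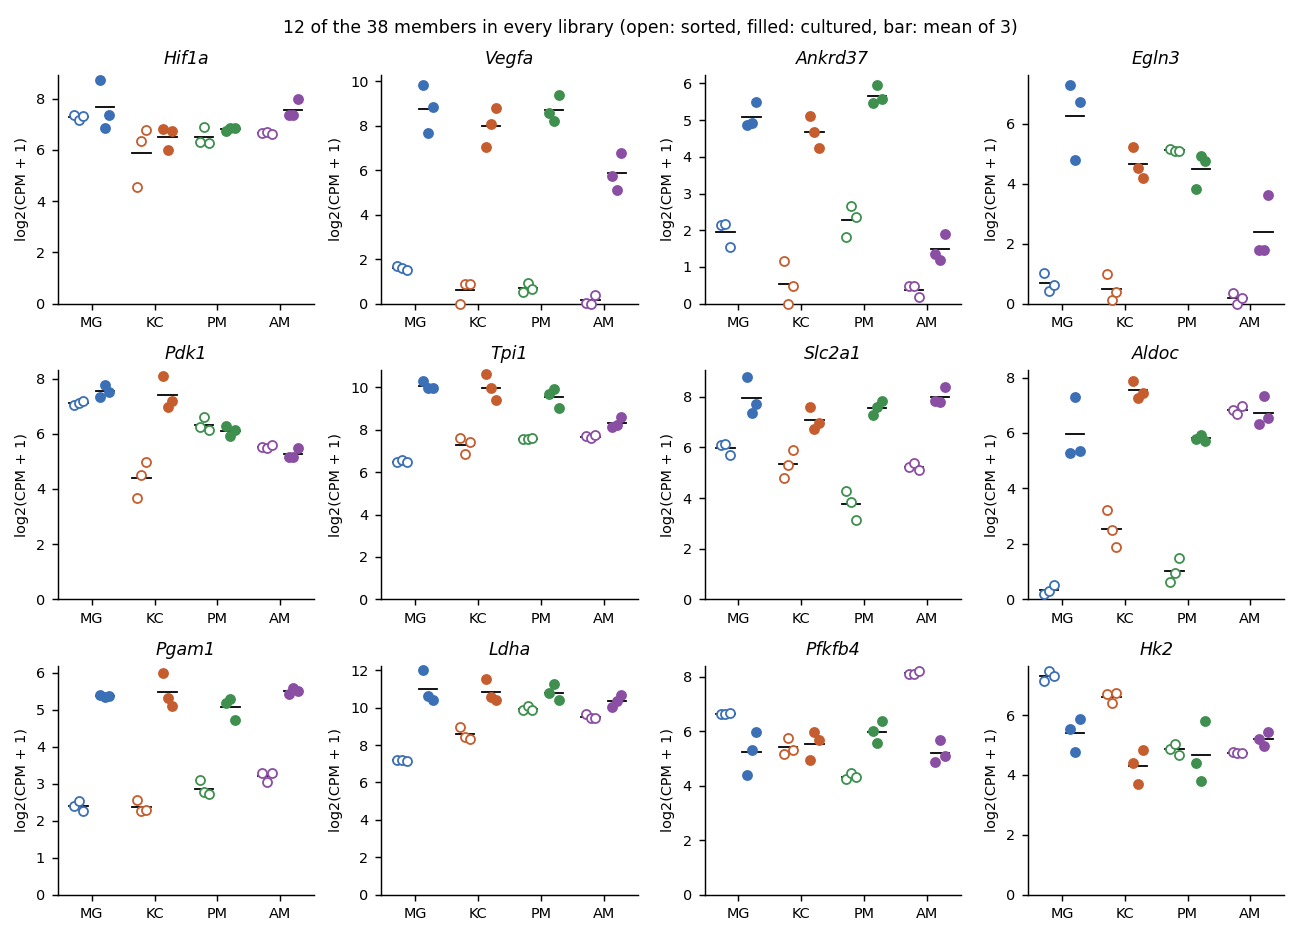
Level of 12 members in every library, as log2(CPM + 1), for the 4 populations (open circles sorted, filled circles cultured, bars the mean of 3). Vegfa and Pgam1 separate sorted from cultured cells in every tissue, Ankrd37, Egln3 and Tpi1 are lowest in AM-LCs among the cultures, Aldoc is high in AMs alone among sorted cells, and Hk2 is lower in MG-LCs and KC-LCs than in their sorted cells.

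Among the other HIF targets, Vegfa, the vascular endothelial growth factor, rose from near 0 in all 4 populations. Vegfa was at 2.25, 2.00 and 1.89 in MG, 0, 0.858 and 0.858 in KCs, 0.434, 0.927 and 0.597 in PMs and 0.0299, 0 and 0.323 in AMs. In culture Vegfa was at 894, 202 and 455 in MG-LCs, 129, 271 and 443 in KC-LCs, 373, 293 and 659 in PM-LCs and 53.0, 33.7 and 107 in AM-LCs. The highest sorted library, at 2.25 CPM in MG, was below the lowest cultured one, at 33.7 CPM in AM-LCs. Vegfa rose by 8.03 ± 0.70 (adjusted p = 0.00105) in MG, 8.91 ± 1.13 (adjusted p = 0.00172) in KCs, 9.39 ± 0.52 (adjusted p = 4.97e-05) in PMs and 9.04 ± 0.95 (adjusted p = 0.000418) in AMs. Adm, a vasodilator peptide that is also made by many stromal cells, was at 0, 0 and 0.0239 in MG, 13.0, 35.6 and 32.8 in KCs, 0.0668, 0 and 0 in PMs and 0, 0 and 0.0746 in AMs. In culture Adm was at 195, 2.04 and 21.7 in MG-LCs, 1.80, 0.0996 and 0.908 in KC-LCs, 5.26, 23.8 and 9.13 in PM-LCs and 1.66, 2.67 and 47.0 in AM-LCs. The 3 libraries richest in fibroblast RNA held the highest Adm level of their group. The same held for other members, among them P4ha2, Ldha, Tpi1, Pgk1, Eno1, Slc16a3, Bnip3 and Egln3. It did not hold for others, such as Vegfa and Aldoc. Against 1 read in all sorted MG, Adm was 9183-fold higher in MG-LCs (95% counting interval 1648 to 362750.0), with an adjusted p of 0.00942 that was lost without sorted MG replicates 1, 2 and 3 (0.0550, 0.0536 and 0.0759) and with limma-voom (0.158). It was 652-fold higher in PM-LCs (180.2 to 5393, adjusted p = 0.00148) and 635-fold higher in AM-LCs (217 to 3084, adjusted p = 0.00745), the latter call being lost with limma-voom (0.0697). These intervals cover counting error only. In KCs alone Adm fell, with a log2 fold change of -4.88 ± 0.94 (adjusted p = 0.00721). Markers of other liver cells were lower in KC-LCs too: 8 endothelial markers summed to 365 to 678 CPM in sorted KCs and 14.9 to 40.5 in KC-LCs, and 8 hepatocyte markers to 143 to 279 and 0.192 to 0.324. Their part in the fall of Adm was not tested.

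Ankrd37, an ankyrin repeat protein used as a hypoxia marker, was at 3.42, 3.49 and 1.94 in MG, 1.22, 0 and 0.400 in KCs, 2.54, 5.29 and 4.15 in PMs and 0.389, 0.384 and 0.124 in AMs. In culture Ankrd37 was at 28.0, 29.1 and 43.9 in MG-LCs, 33.3, 24.7 and 17.8 in KC-LCs, 43.3, 60.5 and 47.0 in PM-LCs and 1.53, 1.30 and 2.73 in AM-LCs. The 9 libraries kept at 3% oxygen lay at 17.8 to 60.5 CPM and the AM-LCs at 1.30 to 2.73. Ankrd37 rose by 3.56 ± 0.35 (adjusted p = 0.00134) in MG, 5.49 ± 1.16 (adjusted p = 0.0101) in KCs, 3.65 ± 0.33 (adjusted p = 0.000344) in PMs and 2.65 ± 0.66 (adjusted p = 0.0137) in AMs, and the AM call was lost without sorted AM replicate 3 (0.0515). The gene overlaps exons of Lrp2bp on the other strand over 22.7% of its exon bases, and the library kit does not mark strand.

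Ndrg1, a stress-response protein, was at 0, 0.0812 and 0 in MG, 9.90, 3.54 and 1.201 in KCs, 0.802, 1.53 and 1.49 in PMs and 4.04, 4.02 and 4.55 in AMs. In culture Ndrg1 was at 54.5, 132 and 51.1 in MG-LCs, 88.7, 68.2 and 83.2 in KC-LCs, 52.1, 38.9 and 32.4 in PM-LCs and 111, 52.9 and 78.5 in AM-LCs. AM-LCs, at 52.9 to 111 CPM, lay within the range of the cultures at 3% oxygen. Against 3 reads in sorted MG, Ndrg1 was 3332-fold higher in MG-LCs (1140.0 to 16162, adjusted p = 0.00103). In the others it rose by 4.00 ± 0.71 (adjusted p = 0.00552) in KCs, 4.9996 ± 0.36 (adjusted p = 0.000136) in PMs and 4.28 ± 0.29 (adjusted p = 0.000102) in AMs. Ak4, a mitochondrial adenylate kinase, was at 0, 0 and 0.144 in MG, 0, 0 and 0 in KCs, 0.0668, 0.109 and 0 in PMs and 0, 0 and 0.0746 in AMs. In culture Ak4 was at 40.1, 7.84 and 22.2 in MG-LCs, 22.5, 4.16 and 3.91 in KC-LCs, 5.17, 7.24 and 8.68 in PM-LCs and 4.31, 9.57 and 14.2 in AM-LCs. No sorted library exceeded 0.144 CPM and no cultured one lay below 3.91. With no read in sorted KCs, Ak4 was at least 381-fold higher in KC-LCs, against a floor of 3 counts over the group (adjusted p = 0.00499). In AMs it was 345-fold higher (118 to 1676, adjusted p = 0.000791), and it rose by 8.88 ± 1.36 (adjusted p = 0.00459) in MG and 6.83 ± 0.91 (adjusted p = 0.00180) in PMs.

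The mitophagy receptors rose in MG, KCs and PMs. Bnip3 was at 14.8, 16.02 and 19.1 in MG, 4.51, 4.65 and 2.06 in KCs, 10.6, 11.3 and 12.0 in PMs and 12.2, 12.1 and 12.2 in AMs. In culture Bnip3 was at 233, 57.3 and 166 in MG-LCs, 121, 48.5 and 40.6 in KC-LCs, 35.5, 65.4 and 33.9 in PM-LCs and 13.1, 22.8 and 46.5 in AM-LCs. AM-LCs were the lowest cultured group, although not without overlap. Bnip3 rose by 3.25 ± 0.53 (adjusted p = 0.00537) in MG, 4.19 ± 0.55 (adjusted p = 0.00191) in KCs and 1.99 ± 0.30 (adjusted p = 0.00312) in PMs, and its level is uncertain, with 62.4% of its windows shared and 22.3% of its exon bases overlapped by an antisense gene. Bnip3l was at 45.4, 43.5 and 49.0 in MG, 34.2, 47.5 and 39.0 in KCs, 60.3, 79.3 and 88.7 in PMs and 154, 119.7 and 129 in AMs. In culture Bnip3l was at 67.8, 63.5 and 114 in MG-LCs, 67.6, 83.6 and 83.4 in KC-LCs, 157, 131 and 135 in PM-LCs and 111, 180.2 and 114 in AM-LCs. Sorted and cultured AMs overlapped. Another gene shares 25.1% of the windows of Bnip3l. Bnip3l rose by 0.88 ± 0.25 (adjusted p = 0.0306) in MG, 0.93 ± 0.23 (adjusted p = 0.0172) in KCs and 0.89 ± 0.19 (adjusted p = 0.0137) in PMs. Each of these calls was lost under some setting, in MG without sorted MG replicates 1, 2 and 3 (0.113, 0.117 and 0.0941), without a filter on low counts (0.0597) and with total-count scaling (0.0613), in KCs without sorted KC replicate 3 (0.0559) and without KC-LC replicates 2 and 3 (0.0628 and 0.0610) and in PMs without sorted PM replicates 1 and 2 (0.0640 and 0.0594) and without PM-LC replicate 1 (0.0513).

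P4ha2, a subunit of the collagen prolyl hydroxylase, was at 1.13, 1.03 and 1.10 in MG, 18.2, 15.4 and 13.4 in KCs, 45.1, 59.0 and 53.7 in PMs and 0, 0 and 0 in AMs. In culture P4ha2 was at 325, 58.6 and 100.2 in MG-LCs, 66.4, 34.3 and 38.7 in KC-LCs, 37.5, 79.0 and 50.7 in PM-LCs and 29.4, 12.6 and 67.4 in AM-LCs. Sorted AMs had no read, and sorted PMs already matched PM-LCs. In AM-LCs it was at least 1379.5-fold higher against the floor of 3 counts (adjusted p = 0.00143), and it rose by 7.27 ± 0.81 (adjusted p = 0.00193) in MG and 1.53 ± 0.32 (adjusted p = 0.00944) in KCs. P4ha1, its paralogue, averaged 366 ± 36.3 in sorted MG and 163 ± 78.9 in KCs, and 130.2 ± 15.1 in PMs and 90.7 ± 12.1 in AMs. In culture P4ha1 averaged 463 ± 167 in MG-LCs, 243 ± 57.1 in KC-LCs, 257 ± 9.04 in PM-LCs and 197 ± 26.6 in AM-LCs, and it rose by 0.98 ± 0.16 (adjusted p = 0.00421) in PMs and 1.14 ± 0.17 (adjusted p = 0.00184) in AMs. Car9, a carbonic anhydrase of the cell surface, averaged 1.33 ± 0.652 in sorted MG and 11.7 ± 6.59 in KCs, and 1.199 ± 0.642 in PMs and 9.54 ± 1.94 in AMs. In culture Car9 averaged 13.9 ± 2.88 in MG-LCs, 11.7 ± 2.31 in KC-LCs, 10.4 ± 3.44 in PM-LCs and 9.55 ± 1.71 in AM-LCs, and it rose by 3.43 ± 0.45 (adjusted p = 0.00288) in MG and 3.12 ± 0.52 (adjusted p = 0.00447) in PMs. The 12 cultured libraries spanned 7.78 to 16.01 CPM for Car9, AM-LCs included.

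Ddit4, an inhibitor of mTORC1, averaged 3.82 ± 0.754 in sorted MG and 1.97 ± 0.661 in KCs, and 0.235 ± 0.110 in PMs and 0.102 ± 0.0872 in AMs. In culture Ddit4 averaged 12.0 ± 17.4 in MG-LCs, 0.496 ± 0.369 in KC-LCs, 0.259 ± 0.227 in PM-LCs and 3.35 ± 3.35 in AM-LCs. It was called only in AMs, where it rose by 5.02 ± 1.05 (adjusted p = 0.00676). MG-LC replicate 1, at 32.0 CPM, stood above all other libraries. Higd1a, a mitochondrial protein, averaged 9.74 ± 1.01 in sorted MG and 16.3 ± 5.48 in KCs, and 13.4 ± 1.44 in PMs and 14.6 ± 2.88 in AMs. In culture Higd1a averaged 37.6 ± 28.2 in MG-LCs, 29.4 ± 5.91 in KC-LCs, 27.6 ± 12.3 in PM-LCs and 35.9 ± 3.62 in AM-LCs, and it rose by 2.01 ± 0.53 (adjusted p = 0.0240) in MG and 1.32 ± 0.20 (adjusted p = 0.00189) in AMs, the former lost without sorted MG replicates 1, 2 and 3 (0.103, 0.0912 and 0.0941). The level of Higd1a is uncertain, with 36.6% of its windows shared and 22.5% of its exon bases overlapped by an antisense gene. Mxi1, an antagonist of MYC, averaged 68.3 ± 3.64 in sorted MG and 32.2 ± 14.5 in KCs, and 35.1 ± 6.35 in PMs and 95.2 ± 4.60 in AMs. In culture Mxi1 averaged 83.8 ± 40.8 in MG-LCs, 51.5 ± 7.63 in KC-LCs, 74.7 ± 27.9 in PM-LCs and 60.2 ± 6.86 in AM-LCs. It rose in PMs and fell in AMs, with log2 fold changes of 1.09 ± 0.31 (adjusted p = 0.0358) in PMs and -0.65 ± 0.11 (adjusted p = 0.00288) in AMs, with calls lost in PMs without sorted PM replicates 1, 2 and 3 (0.129, 0.101 and 0.0929) and without PM-LC replicates 1 and 3 (0.0814 and 0.0547) and in AMs with all 24 libraries in 1 model (0.151).

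The second question is how cultures kept at 3% oxygen differed from AM-LCs kept at atmospheric oxygen. Of the 38 members, 8 were higher in the mean of MG-LCs, KC-LCs and PM-LCs than in AM-LCs and none was lower, against 4.71% of 14813 tested genes higher and 8.38% lower. The 8 were Ankrd37, Vegfa, Egln3, Pdk1, Tpi1, Pfkl, Pfkm and Pfkfb3. The median log2 fold change of the members was 0.42, and that of all genes -0.00. The libraries at 3% oxygen all lay above the 3 AM-LCs for 6 members (4.72% of all genes did so): Ankrd37, Vegfa, Egln3, Pdk1 and Tpi1 of the 8, and Pkm, which did not pass the test. By role, 3 of 16 enzymes were called with a median of 0.51, 2 of 5 transporters and regulators with 1.13, 1 of 4 HIF subunits and sensors with 0.16, and 2 of 13 other targets with 0.30. Oxygen, growth factor, glucose and tissue all differ between AM-LCs and the other cultures and cannot be told apart.

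Ankrd37 had the largest difference, with a log2 fold change of 4.21 ± 0.37 (adjusted p = 0.000142). Pdk1, the kinase that restrains pyruvate dehydrogenase, was higher by 1.78 ± 0.25 (adjusted p = 0.00160). These calls held in all alternatives run. Tpi1 was higher by 1.58 ± 0.31 (adjusted p = 0.00854), a call lost without AM-LC replicate 1 (0.0503). Vegfa was higher by 2.61 ± 0.62 (adjusted p = 0.0213), lost without AM-LC replicates 1 and 2 (0.0915 and 0.0926). Egln3 was higher by 2.77 ± 0.72 (adjusted p = 0.0303), lost without AM-LC replicates 1 and 2 (0.115 and 0.122), with limma-voom (0.0654) and without KC-LCs (0.0577). Pfkl was higher by 1.17 ± 0.32 (adjusted p = 0.0367), lost without AM-LC replicates 1 and 2 (0.154 and 0.125), without KC-LC replicates 1 and 3 (0.0521 and 0.0510), without MG-LC replicate 3 (0.0513), without PM-LC replicates 2 and 3 (0.0515 and 0.0569), without MG-LCs (0.0782) and without KC-LCs (0.0543). Pfkm was higher by 1.48 ± 0.44 (adjusted p = 0.0490), lost without AM-LC replicates 1 and 2 (0.165 and 0.170), without KC-LC replicates 1, 2 and 3 (0.0758, 0.0635 and 0.0825), without MG-LC replicates 2 and 3 (0.0517 and 0.0740), without PM-LC replicates 1 and 3 (0.0802 and 0.0724), with RLE size factors (0.0508), without a filter on low counts (0.0529), without MG-LCs (0.145) and without KC-LCs (0.110). Pfkfb3 was higher by 1.51 ± 0.44 (adjusted p = 0.0446), lost without AM-LC replicates 1, 2 and 3 (0.162, 0.116 and 0.132), without KC-LC replicates 2 and 3 (0.0631 and 0.0711), without MG-LC replicate 3 (0.0707), without PM-LC replicates 1 and 3 (0.0624 and 0.0646), with limma-voom (0.114), without the 3 libraries richest in fibroblast RNA (0.103), without MG-LCs (0.0871) and without PM-LCs (0.0707). The libraries on both sides overlapped for these 3.

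Several members that rose in all 4 cultures or in AM-LCs did not pass against AM-LCs. Slc2a1 averaged 262 ± 62.9 CPM in AM-LCs against 271 ± 146, 141 ± 47.8 and 192 ± 35.9 in MG-LCs, KC-LCs and PM-LCs. Ndrg1, Pgam1 and Hif1a likewise averaged 80.8 ± 29.2, 44.5 ± 2.62 and 193 ± 52.0 CPM in AM-LCs, each within or above the means of the other 3 cultures. A p that misses the threshold does not show equal levels. Without AM-LC replicates 1 or 2, or MG-LC or PM-LC replicate 3, the count of members called fell to 2, 3, 5 and 5. Without the 3 libraries richest in fibroblast RNA, 9 members were higher and none lower.

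**Figure D4:**
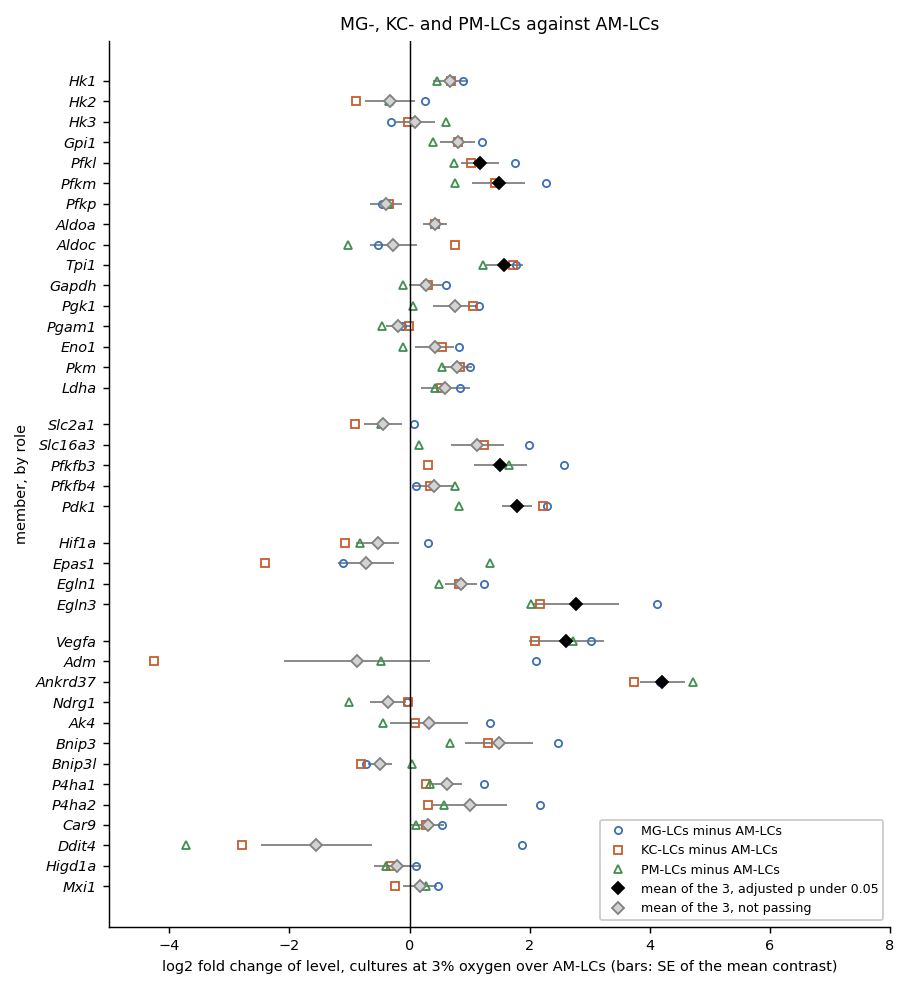
Log2 fold change of each member in cultures at 3% oxygen over AM-LCs: diamonds give the mean of the 3 cultures (black where the adjusted p is under 0.05) with bars of 1 SE, and open symbols give MG-LCs, KC-LCs and PM-LCs each. All 8 black diamonds lie to the right of 0, Ankrd37 farthest, and the 3 cultures lie close together for Ankrd37 and apart for Pdk1, Epas1 and Adm.

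Taken one culture at a time, the difference from AM-LCs was widest in MG-LCs. MG-LCs had 12 members higher and none lower than AM-LCs (3.64% and 4.95% of all genes), with a median of 0.95 against 0.12 for all genes. They were Pfkl, Pfkm, Tpi1, Slc16a3, Pfkfb3, Pdk1, Egln1, Egln3, Vegfa, Ankrd37, Bnip3 and P4ha1. KC-LCs had 3 higher, Tpi1, Pdk1 and Ankrd37, and 1 lower, Epas1 (2.92% and 4.72%). PM-LCs had 2 higher, Vegfa and Ankrd37, and none lower (2.48% and 2.82%). Ankrd37 was called in all 3, with log2 fold changes of 4.17 ± 0.39 (adjusted p = 0.000817), 3.74 ± 0.39 (adjusted p = 0.00129) and 4.72 ± 0.40 (adjusted p = 0.000842). Pdk1 was higher by 2.29 ± 0.28 (adjusted p = 0.00271) in MG-LCs and 2.23 ± 0.28 (adjusted p = 0.00334) in KC-LCs, and its PM-LC libraries, at 59.2 to 77.2 CPM, lay above the AM-LCs without passing. Without AM-LC replicate 1 or 2, MG-LCs and KC-LCs each had 2 members called, and without MG-LC replicate 3 the MG-LCs had 4. KC-LCs had 2 without KC-LC replicate 1 or 2. PM-LCs had 1, Ankrd37, without any 1 of 9 of the cultured libraries.

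Other calls depended on single libraries or settings. Vegfa was higher by 3.02 ± 0.69 (adjusted p = 0.0269) in MG-LCs, lost without AM-LC replicates 1 and 2 (0.0970 and 0.111) and without MG-LC replicate 3 (0.0606), and by 2.72 ± 0.68 (adjusted p = 0.0467) in PM-LCs, lost without AM-LC replicates 1, 2 and 3 (0.154, 0.150 and 0.0632), without KC-LC replicates 2 and 3 (0.0671 and 0.0583), without MG-LC replicate 3 (0.0608) and without PM-LC replicates 1, 2 and 3 (0.105, 0.0599 and 0.133). Tpi1 was higher by 1.78 ± 0.35 (adjusted p = 0.0154) in MG-LCs, lost without AM-LC replicates 1 and 2 (0.0640 and 0.0733), and by 1.73 ± 0.35 (adjusted p = 0.0175) in KC-LCs, lost without AM-LC replicates 1 and 2 (0.0673 and 0.0755) and without KC-LC replicates 1 and 2 (0.0599 and 0.0520). Epas1 in KC-LCs was lower, with -2.40 ± 0.62 (adjusted p = 0.0440), lost without AM-LC replicates 1, 2 and 3 (0.0568, 0.0961 and 0.147), without KC-LC replicates 1, 2 and 3 (0.118, 0.157 and 0.132), without MG-LC replicate 3 (0.0564), without PM-LC replicate 1 (0.0613), with limma-voom (0.141) and with total-count scaling (0.0549).

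In MG-LCs, Egln3 was higher by 4.13 ± 0.83 (adjusted p = 0.0165), lost without AM-LC replicates 1 and 2 (0.0624 and 0.0733). Pfkl was higher by 1.75 ± 0.37 (adjusted p = 0.0206), lost without AM-LC replicates 1 and 2 (0.0780 and 0.0819) and without MG-LC replicate 3 (0.0528). Pfkm was higher by 2.27 ± 0.51 (adjusted p = 0.0250), lost without AM-LC replicates 1 and 2 (0.0893 and 0.0882) and without MG-LC replicate 3 (0.0680). Pfkfb3 was higher by 2.57 ± 0.51 (adjusted p = 0.0158), lost without AM-LC replicates 1, 2 and 3 (0.0657, 0.0612 and 0.0515), without MG-LC replicate 3 (0.0550) and without the 3 libraries richest in fibroblast RNA (0.0575). The lactate exporter Slc16a3 was higher by 1.99 ± 0.52 (adjusted p = 0.0406), lost without AM-LC replicates 1, 2 and 3 (0.127, 0.136 and 0.0932), without KC-LC replicates 2 and 3 (0.0569 and 0.0551), without MG-LC replicates 1 and 3 (0.0785 and 0.0768) and without the 3 libraries richest in fibroblast RNA (0.0517). Egln1 was higher by 1.23 ± 0.31 (adjusted p = 0.0379), lost without AM-LC replicates 1 and 2 (0.118 and 0.138), without KC-LC replicate 2 (0.0525), without MG-LC replicates 1 and 3 (0.0700 and 0.0753) and without PM-LC replicate 1 (0.0566). Bnip3 was higher by 2.48 ± 0.67 (adjusted p = 0.0458), lost without AM-LC replicates 1 and 2 (0.138 and 0.162), without KC-LC replicates 2 and 3 (0.0605 and 0.0611), without MG-LC replicates 1 and 3 (0.0819 and 0.108) and without PM-LC replicates 1, 2 and 3 (0.0672, 0.0512 and 0.0563). P4ha1 was higher by 1.24 ± 0.30 (adjusted p = 0.0315), lost without AM-LC replicates 1, 2 and 3 (0.104, 0.123 and 0.0583), without KC-LC replicate 3 (0.0520), without MG-LC replicates 1 and 3 (0.0519 and 0.0878), without PM-LC replicate 1 (0.0529) and without the 3 libraries richest in fibroblast RNA (0.0655).

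Among MG-LCs, KC-LCs and PM-LCs, which shared their oxygen level, no member was called as different by edgeR's F test, where 0.311% of all genes were (46 of 14813). At an unadjusted p under 0.05, 17 of 38 members (44.7%) and 2632 of all genes (17.8%) differed. DESeq2 called 10 members and limma-voom none. The members with the smallest p were Epas1, Pdk1, Ddit4 and Pfkfb3, with adjusted p of 0.0626, 0.0856, 0.126 and 0.138. Without MG-LC replicate 2, 6 members were called, and without KC-LC replicate 1 or PM-LC replicate 2 it was 1.

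The third question is whether AMs already stood apart before culture. Of 37 members tested, 11 were higher and 17 lower in the mean of sorted MG, KCs and PMs than in sorted AMs (21.9% and 24.7% of all 15732 tested genes), with a median log2 fold change of -0.45 against 0.08 for all genes. Of the 16 enzymes, 9 were lower than in AMs and 5 higher. Sorted AMs were highest in Aldoc, with a log2 fold change of the others over AMs of -6.62 ± 0.35 (adjusted p = 4.23e-08), and in Pfkp, Pfkfb4, Aldoa and Bnip3l, with -3.83 ± 0.32 (adjusted p = 1.95e-06), -2.70 ± 0.11 (adjusted p = 5.78e-09), -1.69 ± 0.10 (adjusted p = 8.01e-08) and -1.37 ± 0.13 (adjusted p = 5.89e-06). Members with their lowest sorted group mean in AMs included Pfkm, Egln3 and Hk1, with 2.87 ± 0.45 (adjusted p = 0.000322), 3.95 ± 0.84 (adjusted p = 0.00253) and 1.69 ± 0.21 (adjusted p = 4.75e-05). They also included P4ha2, with no read in AMs, and Hk3, at 55.7 to 74.6 CPM in AMs and 103 CPM or more in the other sorted libraries. For Egln3, PMs stood at 33.1 to 35.04 CPM and all other sorted libraries at or below 1.04. Sorted MG, at 0.352 to 1.04 CPM, lay above sorted AMs, at 0 to 0.269 CPM, and sorted KCs overlapped AMs. Calls were lost for Ankrd37 without sorted AM replicates 1, 2 and 3 (0.102, 0.103 and 0.155), without sorted MG replicates 1, 2 and 3 (0.0744, 0.0747 and 0.0613), without sorted PM replicates 1, 2 and 3 (0.0635, 0.0781 and 0.0751), with limma-voom (0.0892) and without a filter on low counts (0.0527), Epas1 without sorted AM replicate 3 (0.0517), Gpi1 without sorted AM replicates 1, 2 and 3 (0.0810, 0.102 and 0.105), without sorted MG replicates 1 and 3 (0.0589 and 0.0639) and with total-count scaling (0.0698), Pfkfb3 without sorted AM replicates 1, 2 and 3 (0.114, 0.0583 and 0.0763) and without sorted PM replicate 2 (0.0530), Pgam1 without sorted AM replicates 1 and 3 (0.0690 and 0.0689) and Slc16a3 without sorted AM replicate 1 (0.0793).

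The interaction asks whether the difference from AMs changed in culture, which is the same as asking whether the log2 fold change of cultured over sorted cells, averaged over MG, KCs and PMs, differed from that of AMs. It was above that of AMs for 18 members and below it for 4 (9.45% and 7.68% of all 17408 tested genes), with a median of 0.94 against -0.03 for all genes. Of the 16 enzymes, 9 were above and 2 below, with a median of 1.17. Of the 13 other targets, 5 were above and 2 below, with a median of 0.76. Aldoc led with 6.37 ± 0.67 (adjusted p = 2.21e-06): the other sorted populations were far below AMs and the cultures were not. Tpi1 and Pdk1 also changed, by 2.14 ± 0.31 (adjusted p = 7.88e-05) and 1.35 ± 0.33 (adjusted p = 0.00736). Of the 8 members called against AM-LCs, the other 6 did not pass the interaction: Ankrd37, Vegfa, Egln3, Pfkl, Pfkm and Pfkfb3. For Ankrd37 and Egln3, the mean over the other sorted populations was already called higher than AMs, by 2.62 ± 0.99 (adjusted p = 0.0475) and 3.95 ± 0.84 (adjusted p = 0.00253), although sorted KCs overlapped AMs for both genes and the Ankrd37 call was lost under the settings given for it. This sorted mean was also called higher than AMs for Pfkl, Pfkm and Pfkfb3, but not for Vegfa. Over the alternatives run, the log2 fold change was 0.98 to 1.12 for Pfkl, 2.52 to 3.39 for Pfkm and 0.84 to 1.17 for Pfkfb3. The Pfkfb3 call was lost under the settings given for it. The comparisons of sorted cells and of cultures share no library, and the interaction uses all 24.

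**Figure D5:**
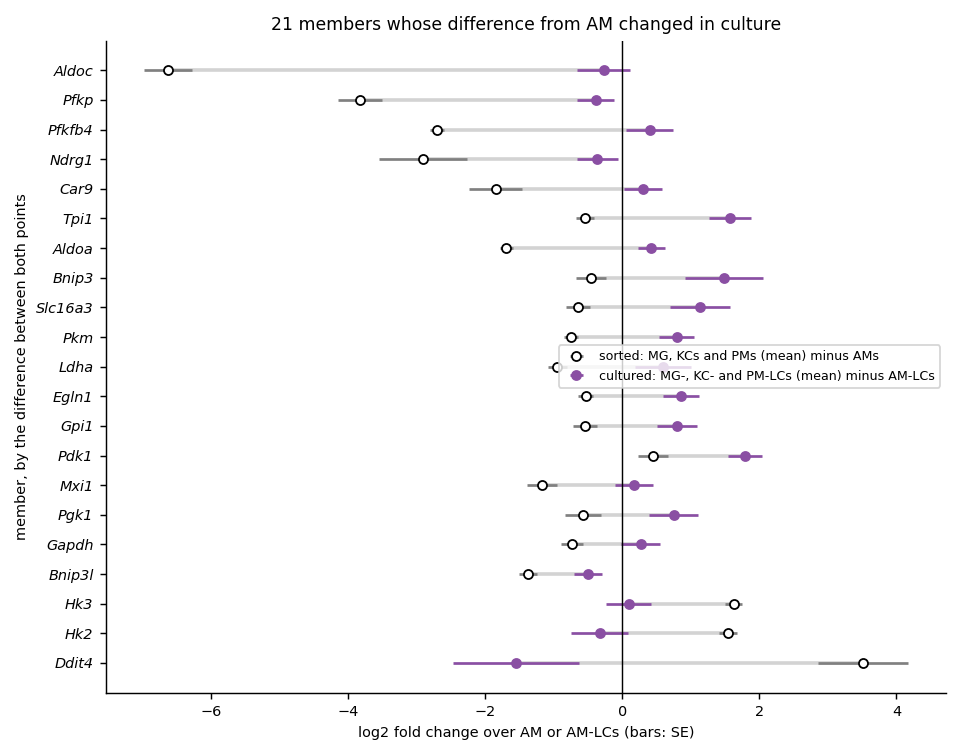
Difference from AMs in sorted cells (open) and in cultures (filled), as log2 fold changes with bars of 1 SE, for 21 members whose difference changed in culture at an adjusted p under 0.05; P4ha2, with no read in sorted AMs, is left out. For Aldoc, Pfkp and Pfkfb4 the open points lie far to the left of 0 and the filled points near 0.

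The other genes of these pathways were counted from lists chosen with the members. Their counts stand against the shares of all tested genes called higher and lower, which were 25.2% and 21.2% in MG, 14.4% and 19.4% in KCs, 16.8% and 12.1% in PMs and 25.9% and 22.9% in AMs, and 4.71% and 8.38% against AM-LCs. Of 20 further HIF targets tested in MG, 11 were higher and 2 lower in culture; the counts were 8 and 0 of 17 in KCs, 8 and 2 of 21 in PMs and 8 and 3 of 20 in AMs. Cxcr4, a chemokine receptor, averaged 0.0614 CPM in sorted MG and 27.7 in MG-LCs, and 24.6 in sorted AMs and 14.1 in AM-LCs. Against AM-LCs, 2 of 22 further targets were higher and 2 lower in the cultures at 3% oxygen, and Bhlhe40, a HIF-induced repressor, was one of the lower ones. Of the other HIF pathway genes, Cited2, which competes with HIF for its coactivator, was the 1 of 9 called higher there. Its mean was 133 CPM in MG-LCs, 158 in KC-LCs, 121 in PM-LCs and 49.1 in AM-LCs. The pentose phosphate pathway, a branch of glycolysis, had 6 of 7 genes higher in MG-LCs but 1 higher and 3 lower in AM-LCs; Rpia, a ribose phosphate isomerase, was lower in all 4 cultures. Of 21 genes of pyruvate dehydrogenase and the citrate cycle, 15 were higher and 1 lower in MG, 4 and 0 in KCs, 1 and 2 in PMs, and 7 and 5 in AMs. None of these 21 was higher and 6 were lower in the cultures at 3% oxygen than in AM-LCs. Of other isozymes of glycolysis, 2 were higher and 1 lower of 12 in MG, 2 and 2 in KCs, 1 and 1 in PMs, and 3 and 3 in AMs, and of 13 tested against AM-LCs none was higher and 2 were lower.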

How the data were processed

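RNA-seq was performed by the authors on SMARTer v4 and Nextera XT libraries, a kit that does not mark strand, read as single ends on a NextSeq. The authors deposited raw read counts per Ensembl mouse gene, not normalised, in 24 columns of which 0 belonged to no sample. The study's methods align to the mouse genome with STAR, and the submitters' processing notes list a human genome build, STAR 2.5.2b and Trimmomatic 0.36, which differ from the methods. The deposited identifiers are mouse genes, and which settings made the counts is not given in the sources used here. Symbols were taken from GENCODE vM21 (GRCm38) and matched 45143 of 45706 identifiers.

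From these counts, edgeR 4.0.16 (R 4.3.3) was run with TMM factors, filterByExpr (minimum count 10) and the two-sided quasi-likelihood test, with Benjamini-Hochberg adjustment over all genes tested in a comparison. Calls required an adjusted p under 0.05, and the stricter count also a log2 fold change above 1.5. Groups followed the labels. Cultured and sorted libraries of each tissue were fitted alone, the cultures together, the sorted cells together, and the interaction over all 24. Fold changes used edgeR's default prior count. The scripts were tested on simulated data.

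The study tested with limma-voom. It was run here as an alternative with limma 3.58.1, as were DESeq2 1.42.0, no filter on low counts, RLE size factors, a replicate block, 1 model of all libraries, leaving out each library and, chosen after seeing the data, total-count scaling and the omission of fibroblast-rich libraries and of whole groups.

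The members and the lists were chosen with earlier results of these data known. All 38 members could be named. Values in every library were given for Hif1a, Vegfa, Slc2a1, members called against AM-LCs and members called in 1 direction in at least 3 of the 4 tissues, and group means for the rest. Genes outside the members were named if called in at least 2 of the 4 tissues in 1 direction or against AM-LCs, at most 4 a list, by the largest fold change. Promoter sequences came from RefSeq (GRCm38.p6). Read windows shared with other genes were counted over 50-base stretches of GENCODE transcripts, and members with 1 to 3 reads in a group were given as ratios with 95% counting intervals.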

Additional observations from a re-analysis of the deposited data

Results flagged for a closer look

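Each value here is a difference between the effects of culture: the log2 fold change of cultured over sorted cells, averaged over MG, KCs and PMs, less that of AMs. The difference itself was tested in edgeR over all 24 libraries, and 22 members passed. Groups of 3 libraries are too small for a test of outlying samples.

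This difference was above 0 for 18 members, of which Pfkfb4, Pfkp and Mxi1 fell in AMs in culture. Of the glycolytic enzymes these were Aldoc, with 6.37 ± 0.67 (adjusted p = 2.21e-06), Pfkp, with 3.45 ± 0.50 (adjusted p = 7.65e-05), Tpi1, with 2.14 ± 0.31 (adjusted p = 7.88e-05), Aldoa, with 2.13 ± 0.22 (adjusted p = 1.70e-06), Pkm, with 1.56 ± 0.25 (adjusted p = 0.000232), Ldha, with 1.55 ± 0.42 (adjusted p = 0.0153), Gpi1, with 1.35 ± 0.33 (adjusted p = 0.00736), Pgk1, with 1.34 ± 0.42 (adjusted p = 0.0315), and Gapdh, with 1.00 ± 0.32 (adjusted p = 0.0370). Of the transporters and regulators they were Pfkfb4, with 3.11 ± 0.39 (adjusted p = 1.58e-05), Slc16a3, with 1.77 ± 0.45 (adjusted p = 0.0100), and Pdk1, with 1.35 ± 0.33 (adjusted p = 0.00736). The oxygen sensor Egln1 had 1.40 ± 0.27 (adjusted p = 0.00116). Of the other HIF targets they were Ndrg1, with 2.57 ± 0.70 (adjusted p = 0.0152), Car9, with 2.16 ± 0.52 (adjusted p = 0.00693), Bnip3, with 1.96 ± 0.57 (adjusted p = 0.0233), Mxi1, with 1.35 ± 0.39 (adjusted p = 0.0224), and Bnip3l, with 0.88 ± 0.26 (adjusted p = 0.0259).

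The difference was below 0 for 4 members: Hk3, with -1.51 ± 0.37 (adjusted p = 0.00750), Hk2, with -1.86 ± 0.45 (adjusted p = 0.00741), Ddit4, with -5.04 ± 1.28 (adjusted p = 0.00951), and P4ha2, with -10.42 ± 1.28 (adjusted p = 2.32e-05). Hk2 fell in MG and KCs. P4ha2 had no read in sorted AMs, so its value depends on the prior count and is no bound.

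The call was lost for Bnip3 without sorted AM replicate 3 (0.0506) and without AM-LC replicates 1 and 2 (0.0829 and 0.0804). It was lost for Bnip3l without sorted AM replicates 1 and 3 (0.0915 and 0.0519), without AM-LC replicates 1 and 3 (0.0966 and 0.0944) and without the 3 libraries richest in fibroblast RNA (0.0609). For Gapdh it was lost without sorted AM replicates 1, 2 and 3 (0.0777, 0.0893 and 0.0638), without AM-LC replicates 1 and 2 (0.0974 and 0.116), without sorted MG replicate 3 (0.0565), without sorted PM replicates 2 and 3 (0.0523 and 0.0532), with RLE size factors (0.0758) and without a filter on low counts (0.0610). For Pgk1 it was lost without sorted AM replicates 1, 2 and 3 (0.0562, 0.0659 and 0.0760), without AM-LC replicates 1 and 2 (0.0814 and 0.104), with limma-voom (0.0865), with RLE size factors (0.0544) and without a filter on low counts (0.05002). For Mxi1 it was lost without sorted AM replicate 3 (0.0585) and without AM-LC replicates 1 and 3 (0.0518 and 0.0735), for Ldha without AM-LC replicate 1 (0.0571), and for Ndrg1 without AM-LC replicate 2 (0.0530). The other 15 calls held in every alternative run, and no cause was tested.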

How the results depend on the processing

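The report holds 182 calls of members over its comparisons, and the alternatives gave 3080 further values for them. No value changed sign, 2801 stayed called and 279 did not, and 121 of the 182 results were called under every alternative run. The settings that lost a call are given beside it, apart from the replicate block. The cause was not tested in any case.

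The counts of members called between sorted and cultured cells stayed within 1.5 times under every alternative. Leaving out 1 library at a time gave 24 to 33 members in MG, 22 to 28 in KCs, 17 to 25 in PMs and 23 to 29 in AMs. Over all genes, leaving out 1 library gave 2928 to 8180 calls in MG (6696 with all), 2563 to 5633 in KCs (4608), 2074 to 5433 in PMs (3921) and 4816 to 6473 in AMs (6431).

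The comparisons with AM-LCs were less stable. Leaving out 1 library gave 2 to 11 members for the mean of the 3 cultures (8 with all), 2 to 14 for MG-LCs (12), 2 to 6 for KC-LCs (4) and 1 to 3 for PM-LCs (2), and over all genes 723 to 2883 (1939), 294 to 1702 (1272), 274 to 1794 (1132) and 154 to 1418 (784). DESeq2 called 13, 10 and 6 members for the mean, KC-LCs and PM-LCs, and over all genes 3144 for the mean, 2776 for MG-LCs, 2687 for KC-LCs and 2078 for PM-LCs. Without KC-LCs, the mean had 5 members and 929 genes. Without the 3 libraries richest in fibroblast RNA, KC-LCs had 8 members and PM-LCs 5. Among the cultures at 3% oxygen, leaving out 1 library gave 0 to 6 members and 1 to 433 genes (46 with all). DESeq2 called 10 members and 1330 genes, limma-voom 27 genes, the test without a filter 1 member and 87 genes, and the test without the fibroblast-rich libraries 1 member.

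With total counts as library size, the median log2 fold change of all genes was -0.20 in MG, -0.21 in KCs, -0.10 in PMs, -0.33 in AMs, 0.26 for the mean against AM-LCs, 0.49 for MG-LCs, 0.27 for KC-LCs, 0.13 for PM-LCs and 0.15 for the interaction. The genes called higher and lower became 2966 and 3965 in MG (3633 and 3063 with TMM), 1381 and 3058 in KCs (1964 and 2644), 2013 and 1992 in PMs (2284 and 1637) and 2331 and 4576 in AMs (3412 and 3019). They became 1402 and 802 for the mean against AM-LCs (698 and 1241), 1386 and 400 for MG-LCs (539 and 733), 950 and 548 for KC-LCs (433 and 699), 480 and 318 for PM-LCs (367 and 417) and 2242 and 1129 for the interaction (1645 and 1337). No called member changed sign. The scaling by total counts, the omission of fibroblast-rich libraries and the omission of whole groups were chosen after seeing the data.

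The replicate numbers of the labels do not pair the libraries: between sorted and cultured cells of a tissue, the deviations of libraries with the same number correlated at -0.10 to 0.06. With the replicate block, 29 members were called in MG, 26 in KCs, 17 in PMs, 27 in AMs, 6 for the mean against AM-LCs, 9 for MG-LCs, 4 for KC-LCs, 2 for PM-LCs, 27 between sorted cells and 23 for the interaction, and 0 members and 8 genes differed among the cultures at 3% oxygen. The block lost the calls of Bnip3l and Higd1a in MG, Pfkl, Pfkp, Ldha, Bnip3l and Mxi1 in PMs, Hk2 and Ankrd37 in AMs, Pfkl and Pfkfb3 for the mean against AM-LCs, Slc16a3, Egln1 and Bnip3 for MG-LCs, Epas1 for KC-LCs and Ankrd37 between sorted cells, with adjusted p of 0.0526 to 0.0869. Among cultures, all 3 KC-LCs correlated best with their own number in PM-LCs and in AM-LCs, a hint from the data and not the design.

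With 3 libraries a group, members with under 3 counts in a group had a fold set by those few reads. Counts of Gapdh, Eno1, Pgk1, Bnip3, Pgam1 and Higd1a depend on how reads shared with other genes, mostly pseudogenes, were assigned. Bulk levels mix all lysed cells, and AM-LCs differed from the other cultures in oxygen, glucose, growth factor and tissue at once.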

Other observations

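Beyond the members, several genes on the neighbouring branches of glucose metabolism changed in culture. Eno2, the neuronal enolase, was higher by 5.02 ± 0.76 in MG (adjusted p = 0.00444), 7.31 ± 0.84 in PMs (0.000924) and 6.42 ± 1.22 in AMs (0.00463) on the log2 scale. Slc16a1, a transporter of lactate and pyruvate, was higher by 4.92 ± 0.92 in KCs (0.00672) and 1.53 ± 0.22 in AMs (0.00154), and it was lower by -1.47 ± 0.34 (0.0180) in the cultures at 3% oxygen than in AM-LCs. In the pentose phosphate pathway, Taldo1, a transaldolase, rose by 1.94 ± 0.25 in MG (0.00289) and 1.16 ± 0.17 in PMs (0.00240) and fell in AMs, with -0.50 ± 0.12 (0.0134). Rpia, the ribose phosphate isomerase, fell in all 4, with -3.86 ± 0.59 in PMs (0.00328), -3.66 ± 0.83 in KCs (0.0129), -2.51 ± 0.78 in MG (0.0402) and -1.97 ± 0.56 in AMs (0.0237). Pdk4, a pyruvate dehydrogenase kinase linked to fasting, fell in PMs, with -5.10 ± 1.30 (0.0245), and in AMs, with -4.83 ± 1.42 (0.0262), whereas its paralogue Pdk1 was called higher in KCs alone.

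Genes that act on pyruvate beyond glycolysis included Pcx, pyruvate carboxylase, which rose by 2.24 ± 0.31 in AMs (adjusted p = 0.00119) and was lower in the cultures at 3% oxygen than in AM-LCs, with -1.69 ± 0.37 (0.0152). Sdhd, a subunit of succinate dehydrogenase, rose by 1.29 ± 0.16 in MG (0.00267), 0.78 ± 0.23 in KCs (0.0342) and 0.89 ± 0.16 in AMs (0.00352) and was lower in the cultures at 3% oxygen than in AM-LCs, with -0.68 ± 0.18 (0.0306). Among the other genes of the HIF pathway, Ep300, a coactivator, fell, with log2 fold changes of -1.76 ± 0.29 in MG (0.00542), -1.95 ± 0.41 in KCs (0.00959) and -1.67 ± 0.24 in AMs (0.00139). Cul2, a part of the ligase that degrades the alpha subunit, was lower in the cultures at 3% oxygen than in AM-LCs, with -0.84 ± 0.14 (0.00369), and Cited2 was higher, with 1.46 ± 0.31 (0.0120). These values are from edgeR's quasi-likelihood test, adjusted over all genes, with 3 libraries in each group.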
